A study of Mus musculus with 6 samples.

Results

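The matrix metalloproteinases (Mmp), the ADAMTS proteases and the tissue inhibitors of metalloproteinases (Timp) were followed in oesophageal squamous cell carcinomas of mice. Within these families members were taken by gene symbol: 23 Mmp, 19 Adamts and 4 Timp genes, or 46 of the 41253 gene symbols in the deposited files. Bulk RNA sequencing covered 6 C57BL/6 mice, 3 labelled wild type (WT) and 3 labelled Ptpro-/- (Ptpro-KO), the latter meant to lack the receptor-type tyrosine phosphatase gene Ptpro. All 6 mice, the WT ones included, had drunk water with 4NQO, a carcinogen that damages DNA, from 6 weeks of age for 16 weeks, and were followed for a further 12 weeks (or killed earlier on marked weight loss), which gives an age of 34 weeks. The concentration is labelled as 100 mg/mL. The sources used here do not say how the Ptpro allele was made.

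MMPs and ADAMTS proteases are zinc enzymes that cut proteins outside the cell. MMPs are made as inactive precursors, some secreted and some anchored in the membrane, and together they cleave most components of the extracellular matrix. ADAMTS proteases are secreted, bind the matrix through thrombospondin-type repeats, and take on narrower tasks such as cleaving proteoglycans of the versican and aggrecan type or trimming procollagens. TIMPs are small secreted proteins that block the active site of MMPs, and Timp3 also blocks several ADAM and ADAMTS enzymes. In squamous carcinomas these genes are transcribed by tumour cells and by fibroblasts, macrophages and neutrophils of the stroma.

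Libraries held 25745240 to 39827467 reads on annotated transcripts. Ptpro itself ran counter to its labels, with 174, 9 and 67 reads in WT replicates 1 to 3 and 1094, 1824 and 1921 in Ptpro-KO replicates 1 to 3. Groups are therefore called by their labels, and every direction below is that of the libraries labelled Ptpro-KO relative to those labelled WT. Reads from Xist and the Y chromosome gave 1 female and 2 males labelled WT, and 2 females and 1 male labelled Ptpro-KO. Xist had 23849 to 25873 reads in libraries taken as female and 11 to 54 in those taken as male. Y-linked genes still had 3064 to 3911 reads in the former, against 8590 to 15091 in the latter. The libraries also differed in cell types. The 7 basal keratinocyte markers, which define squamous epithelium, summed to 21573 to 29677 CPM (reads of a gene scaled to the size of its library) where the label was WT and 9297 to 12438 where it was Ptpro-KO, with 2 of the 7 lower by the test. The 10 fibroblast markers summed to 369 to 1991 CPM against 3031 to 4719. Of these, 5 of the 10 lay above in all 3 libraries and 2 were higher by the test. Col3a1 alone gave 146 to 959 CPM against 1672 to 2572.5, and Dcn, Lum, Dpt, Fap and Thy1 overlapped between labels. The macrophage markers summed to 91.7 to 353 against 585 to 1096 CPM, with 9 of the 9 measured above in all 3 libraries and 1 of the 9 higher by the test. The 5 simple epithelium markers, keratins and Epcam of glandular epithelium, summed to 37.8 to 83.7 CPM against 1055 to 2116, with 5 of the 5 above in all 3 libraries and 4 higher by the test. Single libraries carried other tissue. Stomach epithelium markers summed to 16923 CPM in Ptpro-KO replicate 3 and to at most 24.4 in the others. Thyroid markers summed to 783 CPM in Ptpro-KO replicate 2 and to at most 27.6 in the others. Skeletal muscle markers varied widely within both labels, at 12183, 55.0 and 8347 CPM in WT replicates 1 to 3 and 12045, 5105 and 75.9 in Ptpro-KO replicates 1 to 3. In bulk samples, a change in the number of cells of a type cannot be told apart from a change in RNA per cell, and the part of these differences in the results below was not tested.

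All 46 members had reads, and 41 passed the filter on low counts. The remaining 5 (Mmp1a, Mmp7, Mmp20, Mmp21 and Mmp27) had 3 to 47 reads over all 6 libraries together. By edgeR's quasi-likelihood test with Benjamini-Hochberg adjustment over all 17663 genes tested, 4 of the 41 rose in the libraries labelled Ptpro-KO, where 1.81% of all genes did, and 0 fell, where 2.29% did. The 4 were Adamts9, Adamts12, Adamts15 and Adamts16, the last of which passed the filter only through the libraries labelled Ptpro-KO. At an unadjusted p under 0.05, 17 members were higher (13.7% of all genes were) and 0 lower (11.3%); DESeq2 called 18 higher (9.76% of all genes) and 0 lower (8.57%). Members pass or miss the threshold close together: Adamts15 lay just inside at an adjusted p of 0.0497, while Adamts14 (0.0539), Timp1 (0.0562), Adamts6 (0.0566) and Adamts4 (0.0573) lay just outside in the same edgeR fit. The calls rested on all 6 libraries. Adamts9 and Adamts15 were not called when any 1 of them was left out, while Adamts16 stayed called only without Ptpro-KO replicate 3 and Adamts12 only without Ptpro-KO replicate 1 or 3; without Ptpro-KO replicate 2, WT replicate 2 or WT replicate 3, edgeR called 0 of all genes.

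Fold changes spread mostly to one side. Of the 41 tested members 31 had a positive log2 fold change, or 75.6% where 53.3% of all genes did, and the median was 0.93 against 0.03 for all genes. By family the medians were 0.78 for the Mmp, 0.93 for the Adamts and 1.35 for the Timp genes. In 18 of the 41 members the 3 libraries of one label lay above the 3 of the other, which held for 32.5% of all genes: 17 had the label Ptpro-KO on top (16.8% of all genes) and 1, Adamts17, had it below (15.7%). Separation and at least 2-fold higher expression came together in 14 members, or 34.1%, against 8.19% of all genes. These shares describe the list and are no test of it.

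**Figure D1:**
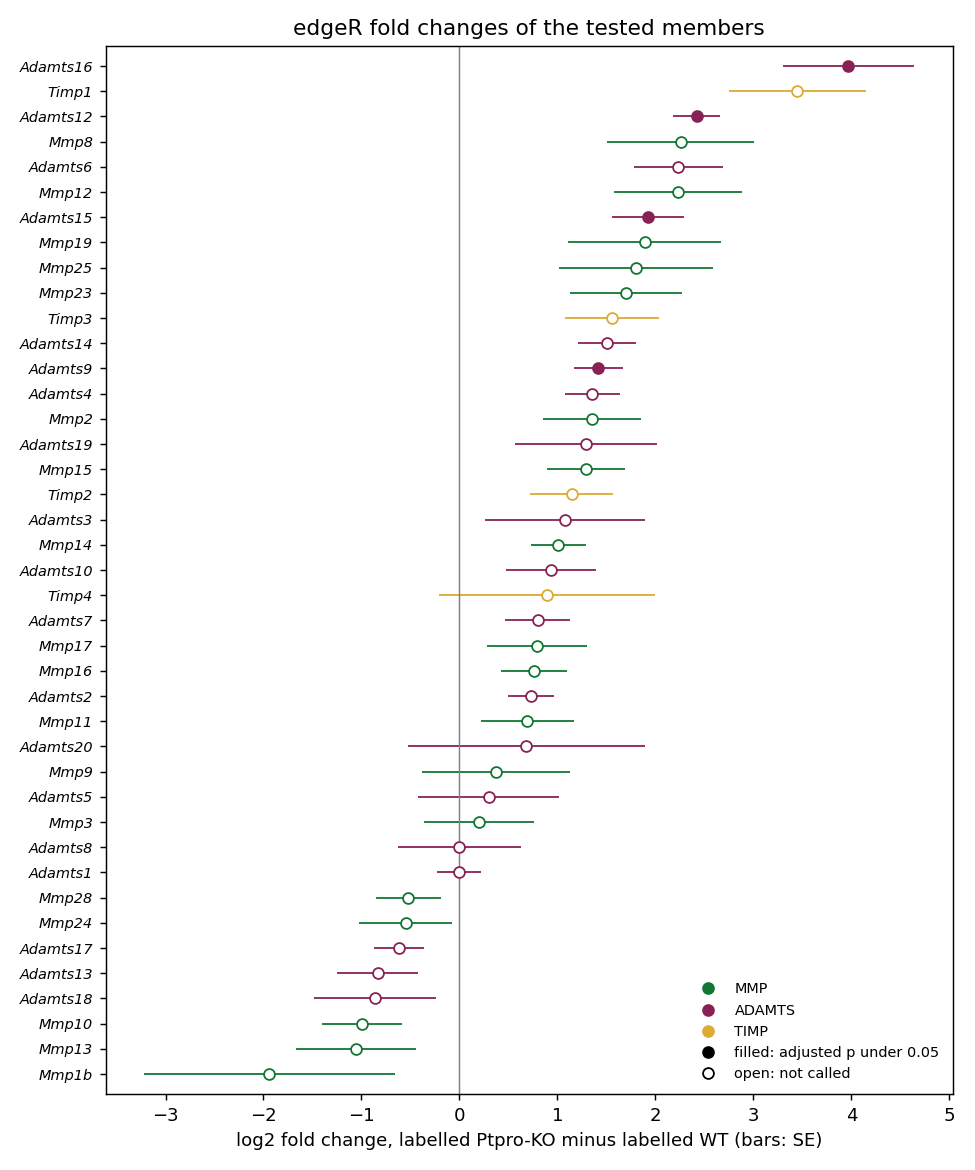
Log2 fold change of the 41 tested members by edgeR, label Ptpro-KO minus label WT, with bars for the standard error; filled points passed an adjusted p of 0.05. Values ran from -1.94 (Mmp1b) to 3.97 (Adamts16), and the 4 filled points are all ADAMTS genes.

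The ADAMTS genes that cleave hyalectans, the large proteoglycans such as versican and aggrecan, are Adamts1, Adamts4, Adamts5, Adamts8, Adamts9, Adamts15 and Adamts20. Of these 7, 2 rose, 0 fell, and 3 were separated, each with the label Ptpro-KO on top. Over all genes tested 1.81% rose, 2.29% fell and 16.8% were separated with that label on top. The counts by role below stand beside the same shares, and no role was tested as a set. Adamts9 (chromosome 6, 92772699 to 92943492, mm10) encodes a secreted protease that cleaves versican and aggrecan. It stood at 13.9, 7.89 and 10.4 CPM in WT replicates 1 to 3 and at 23.5, 32.8 and 29.9 in Ptpro-KO replicates 1 to 3, with a log2 fold change of 1.42 (SE 0.25, edgeR adjusted p = 0.0432). Every library labelled Ptpro-KO lay above every one labelled WT. Of the 36-base words in the main Adamts9 transcript 5.90% occur in other genes, mainly Gm15737, which had 3 to 9 reads per library. Non-coding transcripts held 6.87% to 17.3% of the Adamts9 reads. With these left out, the log2 fold change was 1.36 and the edgeR adjusted p 0.0433. Adamts15 (chromosome 9, 30899155 to 30922452), another versican-cleaving member, stood at 7.31, 3.59 and 9.43 CPM against 21.6, 25.67 and 29.9. The groups did not overlap, and the log2 fold change was 1.92 (SE 0.37, edgeR adjusted p = 0.0497). Adamts4, known as aggrecanase-1, had 10.6, 7.57 and 5.23 CPM against 19.6, 22.2 and 18.1. It too was separated, but at a log2 fold change of 1.36 (SE 0.28) the edgeR adjusted p was 0.0573.

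Adamts1, the most abundant ADAMTS transcript per length in all 6 libraries, differed little between labels. It encodes a hyalectanase that is induced in inflammation and in the ovary. Its level was 186, 105 and 124 CPM against 124, 138 and 151, means of 138 ± 41.9 and 138 ± 13.4 (SD, n = 3 each). The log2 fold change was -0.01 (SE 0.23, edgeR adjusted p = 0.987), and its sign depended on the processing. Its neighbour Adamts5 lies beside it on the same strand of chromosome 16. Known as aggrecanase-2, Adamts5 had 24.6, 3.31 and 8.08 CPM against 14.2, 20.4 and 9.73, and WT replicate 1 was its highest library. Adamts20, which acts on versican in developing skin, had 1.97, 0.0399 and 1.60 CPM against 4.32, 1.01 and 0.527. The groups overlapped, and the low WT replicate 2 value rested on 1 read. Adamts8 had 0.837 to 3.28 against 0.985 to 3.32 CPM.

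Of the 2 members known to cleave the cartilage protein COMP, Adamts7 and Adamts12, both were separated and 1 rose. Adamts12 (chromosome 15, 11064790 to 11349231) had the lowest p of the 41 members. Its level was 5.89, 5.26 and 7.15 CPM in WT replicates 1 to 3 and 40.6, 33.3 and 24.1 in Ptpro-KO replicates 1 to 3. The lowest library labelled Ptpro-KO was well above the highest labelled WT, with a log2 fold change of 2.42 (SE 0.24, edgeR adjusted p = 0.0138). Over 19 alternative analyses its adjusted p ran from 4.86e-16 to 0.136, and it was called in 13 of them. Adamts7 stood at 3.31 to 4.74 against 4.87 to 9.62 CPM (log2 fold change 0.80, edgeR adjusted p = 0.206), and its labels overlapped in the deposited FPKM. Comp itself was near the detection limit, with 1 to 24 reads per library.

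Adamts16 (chromosome 13, 70727802 to 70841811) changed most of all members but from a very low level. It encodes a secreted protease known from kidney, gonad and heart, and its substrates are less well mapped than those of the proteoglycanases. Libraries labelled WT held only 6 or 7 reads each, and those labelled Ptpro-KO at least 50. Adamts16 thus passed the filter on low counts only through the label where it was high, which limits its call and its rank by change. In CPM this was 0.203, 0.239 and 0.214 against 2.68, 6.38 and 1.32. All libraries labelled Ptpro-KO were above but varied widely among themselves, and the log2 fold change was 3.97 (SE 0.67, edgeR adjusted p = 0.0403). Its relative Adamts6, which acts on fibrillin-rich microfibrils, had 4.00, 1.35 and 2.99 CPM against 18.0, 11.03 and 10.4. Adamts6 was separated at a log2 fold change of 2.24 (SE 0.46), and its edgeR adjusted p was 0.0566.

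The procollagen N-proteinases Adamts2, Adamts3 and Adamts14 remove the amino-terminal propeptide so that collagen can form fibrils, and 0 of the 3 passed the test. Adamts14 was separated, at 1.33, 0.797 and 0.748 CPM against 2.77, 2.82 and 2.64. Its 3 libraries labelled Ptpro-KO were closely grouped, and the log2 fold change was 1.51 (SE 0.30, edgeR adjusted p = 0.0539). Adamts3 had 4.49, 0.518 and 0.997 CPM against 3.60, 6.26 and 2.93, an overlap set by WT replicate 1. Adamts2, the most abundant of the 3 per length, had 27.8 to 42.2 against 41.4 to 64.8 CPM (log2 fold change 0.73, edgeR adjusted p = 0.131). Its narrow overlap was absent under upper-quartile scaling and in the deposited RPKM and FPKM. Of the 3 collagen genes in the fibroblast marker list 2 rose, Col1a1 at a log2 fold change of 2.71 (SE 0.26, edgeR adjusted p = 0.0126) and Col1a2 at 2.25 (SE 0.40, edgeR adjusted p = 0.0434). The third, Col3a1, had a log2 fold change of 2.16 (SE 0.68) and an edgeR adjusted p of 0.125.

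The other ADAMTS genes were lower or mixed. Adamts13, the protease that trims von Willebrand factor, had 9.45 to 25.6 against 7.53 to 12.5 CPM (log2 fold change -0.83, edgeR adjusted p = 0.277). The authors' gene table ran the other way, with 0.0184 to 0.0580 FPKM against 0.0350 to 0.102, levels far below its deposited RPKM of 2.20 to 7.03. Of its 36-base words 6.19% occur in other genes, mainly Fmo1, so what its reads measure is uncertain. Adamts17 was the 1 member whose libraries labelled Ptpro-KO all lay below, at 2.81, 2.03 and 2.53 against 1.30, 1.69 and 1.82 CPM (log2 fold change -0.62, edgeR adjusted p = 0.204). It was not separated in the deposited RPKM. Adamts10, Adamts18 and Adamts19 overlapped between labels, with log2 fold changes of 0.93, -0.86 and 1.29.

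Among the TIMP genes, Timp1 stood apart by the size of its change rather than by the test. Timp2, Timp3 and Timp4 had log2 fold changes of 1.15, 1.56 and 0.89, which several Mmp and Adamts genes exceeded. Of the 4 TIMP genes, 0 passed the adjusted threshold and 3 were separated, each with the label Ptpro-KO on top (16.8% of all genes). Timp1 (chromosome X, 20870166 to 20874735), an inhibitor of most secreted MMPs that also acts as a cytokine, had 13.8, 3.27 and 3.03 CPM in WT replicates 1 to 3. In Ptpro-KO replicates 1 to 3 it had 103, 56.9 and 59.98 CPM, means of 6.69 ± 6.14 and 73.5 ± 26.0 (SD, n = 3 each). The log2 fold change was 3.45 (SE 0.70, edgeR adjusted p = 0.0562). The lowest library labelled Ptpro-KO was far above WT replicate 1, the highest of the others, and without that replicate Timp1 was the 1 member edgeR called. DESeq2, limma-voom and limma on the deposited FPKM values also called it, with adjusted p values over the 19 alternatives from 1.64e-06 to 0.185. Timp1 lies inside Syn1, which runs on the opposite strand and had only 1 to 45 reads per library. Timp1 is X-linked and the sexes were unequal between labels; with a term for sex its call was absent, as in the main test.

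Timp2, which both inhibits MMPs and helps Mmp14 activate pro-Mmp2, had 73.3, 25.1 and 42.4 CPM against 135, 103 and 74.7. Its highest library labelled WT lay just under the lowest labelled Ptpro-KO, and at a log2 fold change of 1.15 (SE 0.42) the edgeR adjusted p was 0.167. Timp3, the matrix-bound inhibitor, had 94.5, 28.5 and 59.98 CPM against 165, 249 and 125 (log2 fold change 1.56, SE 0.48, edgeR adjusted p = 0.121). Of the 36-base words in its main transcript 36.8% also occur in transcripts of other genes, chiefly Syn3, inside which it lies, so reads may have been split between them. The reads counted for Syn3 were few, 36 to 124 per library, against 715 to 10626 for Timp3. Timp4, known from heart and fat, was scarce, with 0.406, 0 and 0.819 CPM against 1.52, 0.375 and 0.422. The groups overlapped, and the 0 in WT replicate 2 allows up to 0.1196 CPM at a limit of 3 reads. The fibroblast and macrophage marker sums were ordered by label in the same way as Timp1, Timp2 and Timp3. So were the sums of the osteoclast-type macrophage, simple epithelium, stomach epithelium and mast cell markers. The basal keratinocyte sum had the reverse order, and the other marker sums overlapped. The part of any of these cell types in the Timp values was not tested.

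**Figure D2:**
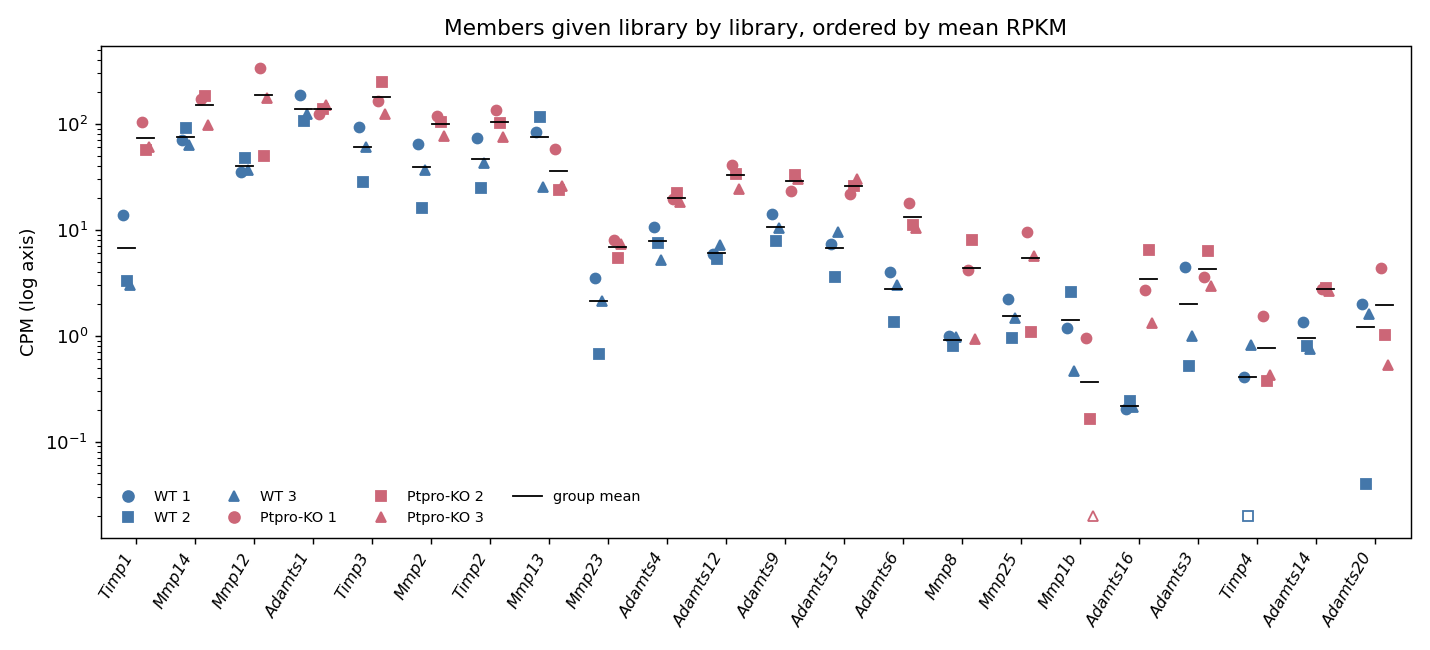
CPM of the 22 members given library by library, on a log axis, ordered from left to right by mean RPKM; symbols are the 3 libraries of each label, horizontal lines the group means, and open symbols at the bottom 0 reads. Timp1, Adamts12, Adamts15 and Adamts16 show wide gaps between labels, while Adamts1 and Mmp13 overlap.

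Among the MMP genes 0 of 18 tested passed the edgeR threshold in either direction. At an unadjusted p under 0.05, 6 were higher, as were 13.7% of all genes, and 0 lower. DESeq2 called 7 Mmp genes (Mmp2, Mmp8, Mmp12, Mmp14, Mmp15, Mmp19 and Mmp23), all higher, where it called 9.76% of all genes higher. Of the 2 gelatinases, which digest denatured and basement membrane collagen, Mmp2 was separated and Mmp9 was not. Mmp2, made mainly by fibroblasts, had 64.7, 16.0 and 36.4 CPM against 119, 104 and 76.9 (log2 fold change 1.35, SE 0.50, edgeR adjusted p = 0.163). Its lowest library, WT replicate 2, was also the lowest in the fibroblast (369 CPM), macrophage (91.7 CPM) and skeletal muscle (55.0 CPM) marker sums. The part of cell types in the Mmp2 values was not tested. Mmp9, abundant in neutrophils and osteoclasts, had 32.6, 40.7 and 8.29 CPM against 68.4, 19.4 and 18.0, and Ptpro-KO replicate 1 alone was above the libraries labelled WT.

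The 7 membrane-anchored MMPs include 3 that were separated, Mmp14, Mmp16 and Mmp23. Mmp14, the membrane-type enzyme that activates pro-Mmp2 and cuts fibrillar collagen, had 69.7, 91.9 and 63.8 CPM against 172, 185 and 96.8. The gap between labels was narrow because of Ptpro-KO replicate 3, and the log2 fold change was 1.01 (SE 0.28, edgeR adjusted p = 0.1002). Without that replicate edgeR called Mmp14. Mmp23 had 3.54, 0.677 and 2.14 CPM against 7.97, 5.47 and 7.33 (log2 fold change 1.70, SE 0.58, edgeR adjusted p = 0.142). Mmp16, close kin of Mmp14, was lower in level at 0.956 to 1.78 against 1.95 to 3.02 CPM, and overlapped in the deposited FPKM. Mmp15 overlapped, with 11.9 to 19.4 against 18.5 to 50.6 CPM, highest in Ptpro-KO replicates 2 and 3. Mmp25, a leukocyte enzyme held by a lipid anchor, had 2.20, 0.956 and 1.46 CPM against 9.55, 1.08 and 5.61. Ptpro-KO replicate 2 thus lay among the libraries labelled WT, and Mmp17 and Mmp24 overlapped as well.

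Mmp12, the macrophage metalloelastase, was high in Ptpro-KO replicates 1 and 3 and close to the libraries labelled WT in Ptpro-KO replicate 2. As a sum over transcripts it had 35.1, 48.1 and 36.8 CPM against 335, 49.8 and 177, so that Ptpro-KO replicate 2 lay barely above WT replicate 2 (log2 fold change 2.23, SE 0.65, edgeR adjusted p = 0.110). Its protein-coding transcript had 13.7, 24.2 and 14.6 CPM against 294, 24.1 and 147, so that Ptpro-KO replicate 2 and WT replicate 2 were nearly equal. A transcript annotated as a retained intron had 21.3, 23.0 and 22.0 against 37.5, 25.4 and 29.3 CPM, a much flatter pattern. Transcripts other than the coding one held 49.6% to 61.0% of the Mmp12 reads in libraries labelled WT and 51.6% in Ptpro-KO replicate 2, but 12.1% and 17.3% in Ptpro-KO replicates 1 and 3. With annotated non-coding transcripts left out, the log2 fold change was 3.14 and the edgeR adjusted p 0.0967; Mmp12 was then separated on the library sizes of that fit, so whether the labels overlap on coding reads depended on the scaling. The sum of the macrophage markers did not share the dip in Ptpro-KO replicate 2, at 1096, 891 and 585 CPM in Ptpro-KO replicates 1 to 3. Csf1r alone among them was lowest in replicate 2, at 201, 98.5 and 120 CPM. A list of osteoclast-type macrophage markers summed to 199, 155 and 173 CPM, also lowest in replicate 2. The part of macrophages in the Mmp12 values was not tested.

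**Figure D3:**
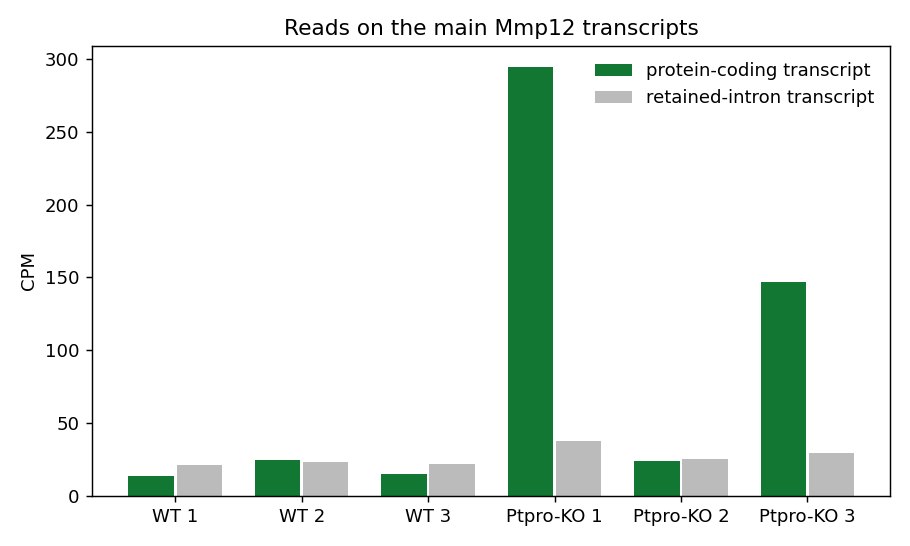
CPM on the protein-coding and the retained-intron transcript of Mmp12 in each library, as bars from 0. The coding transcript reached 294 and 147 CPM in Ptpro-KO replicates 1 and 3 and 13.7 to 24.2 CPM in the other 4 libraries, while the retained-intron transcript stayed between 21.3 and 37.5.

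Mmp12 belongs to a cluster of 10 MMP genes on chromosome 9, from 7272514 to 7699585 (mm10), a span of 427.1 kb. In chromosomal order they are Mmp13, Mmp12, Mmp1b, Mmp3, Mmp1a, Mmp10, Mmp8, Mmp27, Mmp20 and Mmp7, which comprise collagenases, stromelysins, the elastase and the matrilysin Mmp7. Several of these genes, though not all, are textbook targets of AP-1, the Fos and Jun transcription factor, through a site close to the start. The 7-base AP-1 motif TGAGTCA, or its reverse complement TGACTCA, was searched in the 250 bases before each start in RefSeq's promoter table (GRCm38.p6). It was present in 7 of the 10 cluster genes and in 0 of the 22 other members with an entry, against 4.46% of all 32851 promoters. The first base of the motif lay 35 to 93 bases before the start. The stretches are shown, 5′ to 3′ on the gene's strand with the motif in capitals, because neighbours with the same motif differed in level.
Mmp13 (chr9:7272449-7272513, plus strand): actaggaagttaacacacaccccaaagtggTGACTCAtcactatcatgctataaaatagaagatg
Mmp12 (chr9:7347300-7347366, plus strand): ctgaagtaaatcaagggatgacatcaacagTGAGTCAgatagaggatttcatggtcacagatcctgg
Mmp1b (chr9:7388083-7388149, minus strand): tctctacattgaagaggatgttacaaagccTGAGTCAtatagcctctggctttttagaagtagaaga
Mmp3 (chr9:7445746-7445812, plus strand): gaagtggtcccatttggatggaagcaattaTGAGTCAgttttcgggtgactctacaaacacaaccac
Mmp1a (chr9:7464038-7464104, plus strand): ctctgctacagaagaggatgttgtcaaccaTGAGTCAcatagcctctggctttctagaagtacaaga
Mmp10 (chr9:7502249-7502315, plus strand): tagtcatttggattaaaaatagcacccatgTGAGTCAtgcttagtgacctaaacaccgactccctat
Mmp7 (chr9:7691997-7692063, plus strand): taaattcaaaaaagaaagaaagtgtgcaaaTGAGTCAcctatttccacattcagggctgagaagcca
The Mmp1a and Mmp1b stretches were identical at 74.6% of 67 aligned positions, the highest share among the 6 stretches of equal length. A match to these letters is a description of the sequence and shows no binding.

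Within the cluster 6 of the 10 genes were tested and 0 were called. Mmp13, the collagenase that cuts fibrillar collagen in mice, had 83.6, 115 and 25.6 CPM against 57.65, 23.8 and 26.2. The groups overlapped, since WT replicate 3 was as low as Ptpro-KO replicates 2 and 3 (log2 fold change -1.06, SE 0.61, edgeR adjusted p = 0.342). Mmp10, a stromelysin of migrating keratinocytes, had 26.2, 29.5 and 9.79 CPM against 11.3, 9.71 and 11.8 (log2 fold change -0.996, edgeR adjusted p = 0.202). Its relative Mmp3 had 16.9, 29.5 and 5.45 against 23.2, 19.4 and 17.0 CPM. In all 3 genes WT replicate 3 was far below WT replicates 1 and 2, and the libraries labelled WT spread more widely than those labelled Ptpro-KO. Mmp3 and Mmp10 share 12.3% and 10.8% of their 36-base words with other transcripts, mainly each other's.

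Mmp1b, one of a pair of mouse genes related to human interstitial collagenase, had 1.19, 2.59 and 0.463 CPM against 0.941, 0.164 and 0. The 0 in Ptpro-KO replicate 3 allows up to 0.0791 CPM at 3 reads. Its groups overlapped (log2 fold change -1.94, SE 1.28, edgeR adjusted p = 0.401), it overlaps the end of Mmp12 on the other strand, and 26.3% of its 36-base words occur in other genes, chiefly Mmp1a. Mmp8, the neutrophil collagenase, had 0.986, 0.797 and 0.961 CPM against 4.21, 8.02 and 0.922. Ptpro-KO replicate 3 lay among the libraries labelled WT (log2 fold change 2.26, SE 0.75, edgeR adjusted p = 0.138), and without it edgeR called Mmp8. In the deposited RPKM the labels were separated by a narrow margin, 0.317 to 0.374 against 0.398 to 3.50. The 10 neutrophil markers summed to 1399, 7628 and 407 CPM in Ptpro-KO replicates 1 to 3 and to 1460 to 3371 in libraries labelled WT, but Ltf alone gave 867, 6469 and 164 of the former. In the libraries labelled Ptpro-KO, S100a8 (142, 420 and 68.2 CPM) and S100a9 (315, 692 and 139 CPM) had the same order as Mmp8. Both were lower there than in every library labelled WT. The neutrophil receptors Csf3r (40.2, 18.7 and 18.9 CPM) and Cxcr2 (28.7, 23.4 and 15.9 CPM) were highest in Ptpro-KO replicate 1, unlike Mmp8. The part of neutrophils in the Mmp8 values was not tested. Mmp1a, Mmp7, Mmp20 and Mmp27 were too scarce to test.

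**Figure D4:**
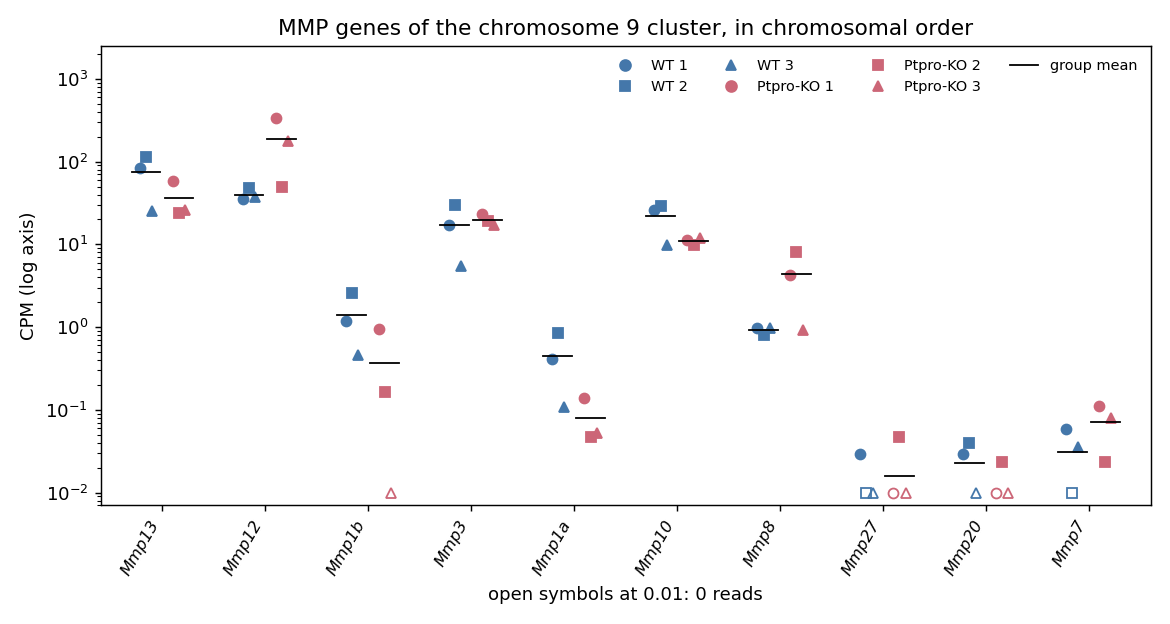
CPM of the 10 MMP genes of the chromosome 9 cluster in chromosomal order, on a log axis; open symbols at the lower edge are libraries with 0 reads, and lines are group means above that edge. Mmp12 and Mmp8 are higher and Mmp13, Mmp10 and Mmp1b are lower on average under the label Ptpro-KO, and Mmp1a, Mmp27, Mmp20 and Mmp7 stay below 1 CPM.

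Outside the cluster, Mmp19 had 21.1, 3.31 and 6.59 CPM against 50.01, 49.3 and 15.9 and overlapped because of WT replicate 1 and Ptpro-KO replicate 3. It also overlaps Tmem198b on the other strand, and 26.3% of its 36-base words are shared. Mmp28, an enzyme of keratinocytes known as epilysin, was lower on average, at 20.04 to 30.4 against 11.5 to 26.5 CPM (log2 fold change -0.52, edgeR adjusted p = 0.389). Mmp11, or stromelysin-3, was separated by a narrow margin, at 0.996 to 3.22 against 3.27 to 4.81 CPM.

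Deposited RPKM values, which take transcript length into account, allowed levels of different genes to be set side by side. The highest mean RPKM over the 6 libraries was that of Timp1 (49.7), followed by Mmp14 (44.2), Mmp12 (32.6), Adamts1 (29.1), Timp3 (26.9), Mmp2 (23.2), Timp2 (20.6) and Mmp13 (20.3). The order differed by label: under WT the highest means were those of Adamts1 (27.7), Mmp14 (27.5) and Mmp13 (26.6), with Timp1 at 7.49, and under Ptpro-KO those of Timp1 (91.9), Mmp14 (60.9) and Mmp12 (55.1). The summed RPKM of the 4 TIMP genes was 52.3, 16.4 and 27.9 in WT replicates 1 to 3 and 201, 162 and 126 in Ptpro-KO replicates 1 to 3. For the 23 MMP genes it was 137, 163 and 85.5 against 309, 207 and 194, and for the 19 ADAMTS genes 61.9, 38.2 and 48.2 against 73.4, 82.9 and 74.3. None of the 3 family sums overlapped between labels. The ratio of TIMP to MMP sums was 0.383, 0.101 and 0.326 against 0.649, 0.782 and 0.653. These sums are descriptions: with 3 libraries per label an exact permutation test of a single value cannot go below 0.1.

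The leading transcripts differed as well. Among the TIMP genes, Timp1 made up 29.0%, 23.3% and 12.5% of the summed RPKM in WT replicates 1 to 3 and 62.9%, 45.1% and 60.3% in Ptpro-KO replicates 1 to 3. Timp1 was first of the 4 in every library labelled Ptpro-KO and behind both Timp2 and Timp3 in every one labelled WT. Among the MMP genes, Mmp13 was first in WT replicates 1 and 2, Mmp14 in WT replicate 3 and Ptpro-KO replicate 2, and Mmp12 in Ptpro-KO replicates 1 and 3. Adamts1 led the ADAMTS genes in all 6 libraries, with 58.4%, 57.2% and 52.2% against 36.1%, 37.5% and 45.4% of their sum.

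**Figure D5:**
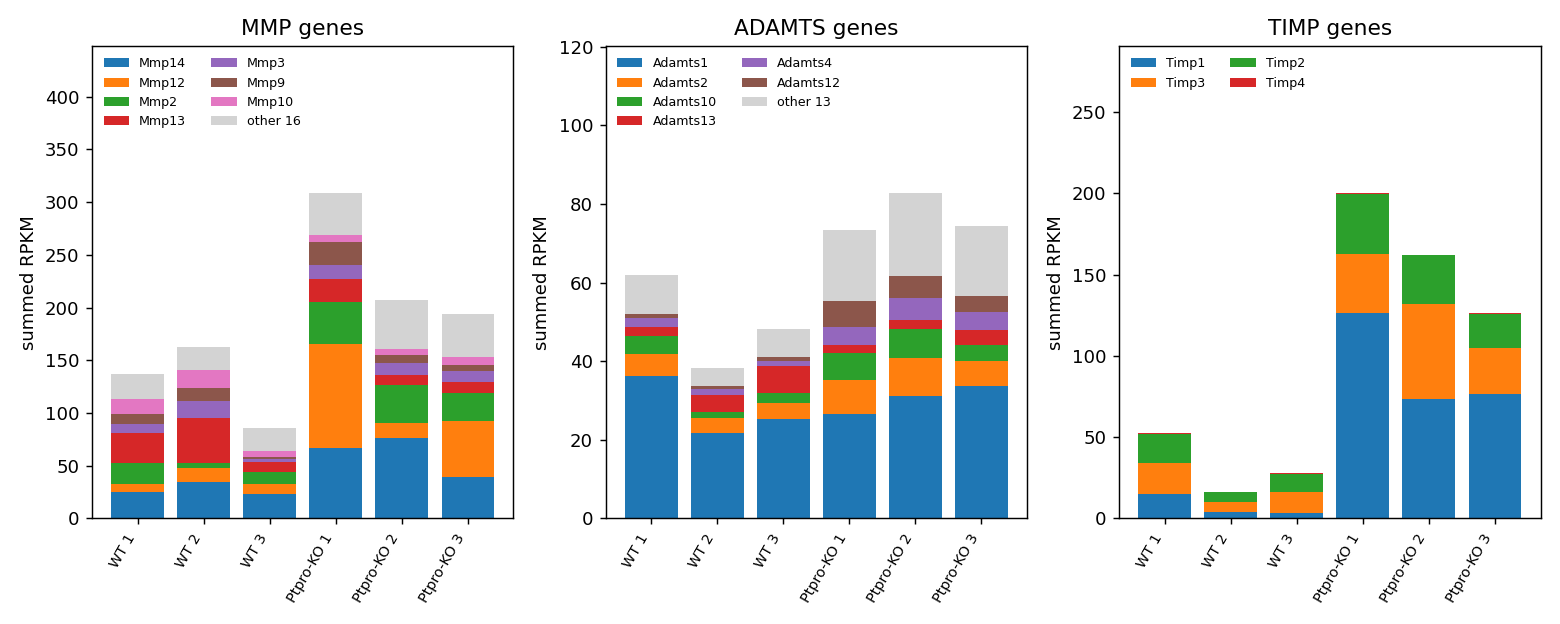
Summed deposited RPKM of the MMP, ADAMTS and TIMP genes in each library, as bars from 0 divided by gene. TIMP sums were 126 to 201 in libraries labelled Ptpro-KO and 16.4 to 52.3 in those labelled WT, with Timp1 the largest part of each of the former.

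Other genes of extracellular proteolysis were listed by role, 62 in 9 lists, of which 56 were tested. Of these 4 rose and 0 fell, or 7.14% where 4.10% of all genes were called in either direction. Adam9, a membrane protease that sheds growth factor precursors, rose from 82.7, 69.9 and 72.9 CPM to 144, 130 and 126 (log2 fold change 0.83, SE 0.11, edgeR adjusted p = 0.0255). Adamdec1, a secreted ADAM-like protein of macrophages and gut stroma, rose from 2.52, 1.91 and 1.28 CPM to 17.6, 18.6 and 23.0 (log2 fold change 3.37, SE 0.30, edgeR adjusted p = 0.0125). Both showed little spread within a label. A2m, a plasma inhibitor that traps proteases of all classes, had 3, 0 and 3 reads against 77, 318 and 306 (edgeR adjusted p = 0.0304). Thbs2, a matricellular protein that helps clear Mmp2 by the receptor Lrp1, rose from 46.5, 43.9 and 41.7 CPM to 154, 198 and 458 (log2 fold change 2.62, SE 0.43, edgeR adjusted p = 0.0382).

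The receptors and activators around these enzymes gave no further call. In the plasminogen pathway, which activates several MMPs, 0 of 8 tested genes passed. Plau, the urokinase gene, had 151, 210 and 154 CPM against 161, 66.0 and 64.7, and the inhibitor Serpinb2 299, 156 and 76.2 against 153, 107 and 128. Of the proprotein convertases, which cut pro-Mmp14 and pro-ADAMTS proteins, Furin had 100, 145 and 88.9 against 141, 157 and 198 CPM (log2 fold change 0.57, edgeR adjusted p = 0.189). Of the membrane regulators, Bsg, an inducer of MMP synthesis, had log2 fold change -0.10 and Cd44, which docks Mmp9 at the cell surface, -0.08. Among substrates, Fn1 had 326, 61.5 and 131 CPM against 1520, 977 and 799 (log2 fold change 2.67, SE 0.65, edgeR adjusted p = 0.0784), and Eln, the elastin cut by Mmp12, 41.9, 4.82 and 28.3 against 127, 219 and 82.1 (log2 fold change 2.51, SE 0.80, edgeR adjusted p = 0.129). Both were separated, as were Ctsk and Ctss, the cathepsins of osteoclasts and macrophages, at log2 fold changes of 2.12 and 2.65 and edgeR adjusted p values of 0.0736 and 0.0566. Among the 56 tested genes of the 9 lists, 18 were separated with the label Ptpro-KO on top, as were 16.8% of all genes. In either direction 20 were separated, or 35.7%, close to the 32.5% of all genes.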

How the data were processed

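Per the submitters' processing notes, the aligner was Bowtie 0.12.2 and the genome build mm10. The authors deposited whole read counts per Ensembl transcript and RPKM per transcript for each sample, and a gene table of FPKM. The sources used here do not say how reads matching several transcripts were assigned or whether strand was used. Of the gene table's columns, 2 were not used. Here counts and RPKM were summed per gene symbol; 0 reads lacked a gene name. Of the members' 129 transcripts 128 were in GENCODE M21, which gave positions.

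Genes were filtered with filterByExpr (10 counts in 3 libraries, 15 in total), scaled by TMM and tested with edgeR 4.0.16 in R 4.3.3 (quasi-likelihood, Benjamini-Hochberg threshold 0.05). CPM uses TMM library sizes. The common biological coefficient of variation was 0.398. Alternatives used DESeq2 1.42.0, limma 3.58.1 (voom, and log2 of FPKM plus 1 or 0.1), other scalings and filters, and subsets of libraries. Each group is 3 mice per the design text, and p-values measure the spread between mice. Libraries of a label were no duplicates (chi-square per degree of freedom 66.9 to 307). On simulated counts of 17400 genes for this comparison, 5 of 97 genes changed 2-fold, 52 of 98 changed 4-fold and 7 of 17205 unchanged genes were called.

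The gene families and lists were chosen with earlier results of these data known; within the families, symbols alone set the members. Members given library by library were those called, those separated with a log2 fold change of at least 1 in size, the 8 with highest RPKM, the TIMPs, and those varying over 8-fold within a label at 1 CPM or more. Other names, and the promoter stretches apart from that of Mmp12, were chosen after their values were seen. One age label (week 6) differs from the design text (34 weeks). No protein sequences were used here. One gene overlap is not reported here.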

Additional observations from a re-analysis of the deposited data

How the results depend on the processing

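The count of 4 members higher was 18 with DESeq2, 2 with limma on log2(FPKM + 0.1), 1 with a term for sex, 1 with the replicate number as a block, and 0 with the 4 libraries whose files carry a B identifier. Leaving out 1 library in turn gave 0 to 4: 0 without Ptpro-KO replicate 2, WT replicate 2 or WT replicate 3, where edgeR called 0 of all genes, 1 without WT replicate 1 (Timp1) or Ptpro-KO replicate 1 (Adamts12), and 4 without Ptpro-KO replicate 3. The other alternatives gave 3 to 6, and 0 members were lower under all. The 18 separated members became 18 or 19, with changes: upper-quartile scaling added Adamts2, RPKM added Adamts2 and Mmp8 and lost Adamts17, FPKM added Adamts2 and Mmp24 and lost Adamts7 and Mmp16, and counting members below the filter added Mmp21. The 4 companion genes became 19 with DESeq2, 2 with the block, 1 with the sex term, 0 with B identifiers, 2 with limma on log2(FPKM + 1), and 0 to 4 leaving out 1 library. The replicate numbers do not pair the mice: deviations of same-numbered libraries correlated at 0.54, 0.08 and -0.24, and under the block Timp1 was the 1 member called.

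Over 22 named members and 19 alternatives, 415 fold changes could be computed: 338 kept direction and call, 41 lost the call, 23 gained it and 13 reversed. Adamts1 turned positive with limma-voom (0.029), upper-quartile scaling (0.002), a 1 CPM filter (0.005), without WT replicate 1 (0.255), without Ptpro-KO replicate 1 (0.03), with the block (0.031), B identifiers (0.301) and FPKM plus 1 or 0.1 (0.032 and 0.033). Leaving out 1 library gave -0.177 to 0.255 for Adamts1, -0.683 to 1.227 for Adamts20 and -0.075 to 1.826 for Timp4. Without Ptpro-KO replicate 1 and with B identifiers, Adamts20 was -0.683 and -0.129, and Timp4 -0.075 and -0.085. The alternative without non-coding transcripts was added after seeing the data. The effect of depth was not tested beyond the 5 members that failed the filter. The cause of these changes was not tested.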
